A study of Mus musculus with 24 samples.

Results

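Genes that mark the entry of blood progenitors into the T cell lineage were followed across sorted mouse bone marrow cells with and without the transcription factor gene Tal1. The 6 genes were the transcription factor genes Bcl11b, Tcf7 and Gata3, the T cell receptor constant segments Trbc1 and Tcrg-C2, and the kinase gene Zap70. They were the rows of the deposited table, among 17149 genes, whose Ensembl identifier maps to these symbols, and all 6 were found. They were selected on measured values, taken here to be those of the GFP-positive HSC libraries, so differences that use those libraries are described without a test.

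The study sequenced total RNA in 24 libraries, 3 for each of 8 groups, from bone marrow cells in the lineage-negative, Sca-1 and Kit positive gate (LSK). CD135-negative LSK cells are called HSC and CD135-positive LSK cells LMPP (lymphoid-primed multipotent progenitors), and each was sorted as Rag2-GFP negative or positive. Control cells (Ctrl) carried floxed Tal1 (Tal1 F/F) and the Rag2GFP reporter with no Cre, and are labelled wild type. Knockout cells (KO) carried VaviCre, floxed Tal1 (Tal1F/F) and the same Rag2GFP reporter. Vav-driven Cre acts across blood cells, so deletion was not limited to the lymphoid lineage, and no group lacked the floxed alleles or the reporter. The animals' age and sex, and whether the replicates were separate animals, are not given in the labels, so the p-values below rest on a spread between libraries that may be technical.

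T cells arise from bone marrow progenitors that reach the thymus, where Notch signals switch on the T lineage program. TCF-1, the product of Tcf7, and GATA3 act early in that program, and Bcl11b acts at the step where cells lose their other fates. Rearrangement of the receptor loci by the Rag1 and Rag2 recombinase then gives a beta or gamma receptor chain, whose constant part comes from segments such as Trbc1 and Tcrg-C2. Zap70 is the kinase that binds the phosphorylated CD3 and zeta chains once the receptor is engaged. TAL1 is a basic helix-loop-helix factor that binds E-box sequences together with E proteins.

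Values are the authors' normalised counts per gene, and ppm is a gene's share of a library's summed normalised counts times 1000000. Library sums ran from 6906083 to 11969093. Low values were spaced at 0.565 to 2.20 normalised counts, which is the approximate worth of 1 read, so a value well under 1 stands for no read. The Ctrl HSC GFP-positive replicate 2 library (11982 genes above 1) and the KO LMPP GFP-positive replicate 3 library (11684 genes) detected fewer genes than the other 22 libraries, which had 13583 to 15957. Tal1 was 1793 ± 296 normalised counts (SD, n = 3) in Ctrl and 364 ± 137 in KO GFP-negative HSC, and 511 ± 266 and 243 ± 90.2 in GFP-positive HSC. Rag2, whose reporter defined the gate, was 27.8 ± 21.8 in GFP-negative and 456 ± 145 in GFP-positive Ctrl HSC.

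In the GRCm38 annotation (GENCODE M21), Bcl11b (ENSMUSG00000048251) lies at chr12:107910403-108003602 on the minus strand, Tcf7 (ENSMUSG00000000782) at chr11:52252371-52283014 on the minus strand and Gata3 (ENSMUSG00000015619) at chr2:9857078-9890034 on the minus strand. Trbc1 (ENSMUSG00000076490) lies at chr6:41538218-41539881 on the plus strand, Tcrg-C2 (ENSMUSG00000076752) at chr13:19304649-19307551 on the minus strand and Zap70 (ENSMUSG00000026117) at chr1:36761798-36782818 on the plus strand. Counts were taken per gene, so each value covers all exons of a gene. RefSeq windows from 250 bases before to 50 bases after a start (GRCm38.p6) were matched for Bcl11b, Tcf7, Gata3 and Zap70. Bcl11b and Zap70 are shown because they reached 1 ppm in different groups, and only the bases outside the annotated gene are printed (Bcl11b from chr12:108003603-108003664 on the minus strand, Zap70 from chr1:36761548-36761797 on the plus strand), 5′ to 3′ with E-boxes (CANNTG) in capitals.
Bcl11b: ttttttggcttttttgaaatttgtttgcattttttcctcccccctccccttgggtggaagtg
Zap70: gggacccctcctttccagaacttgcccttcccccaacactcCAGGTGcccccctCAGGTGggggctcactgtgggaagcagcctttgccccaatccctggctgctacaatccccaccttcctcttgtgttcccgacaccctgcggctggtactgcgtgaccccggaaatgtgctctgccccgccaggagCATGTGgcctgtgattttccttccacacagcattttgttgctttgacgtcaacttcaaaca

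The Zap70 window shown held 3 E-boxes, its other RefSeq start windows held 1 and 2, and the Bcl11b window held 0, while 72.3% of 32851 RefSeq promoter windows of 300 bases held at least 1. The Gata3 window and both Tcf7 windows held 1 each. Motifs of 4 further factor families were searched on both strands of the same windows. The GATA motif (A or T, then GATA, then A or G), present in 29.8% of windows, was found once, in Gata3. The TCF motif (CTTTG, then A or T), present in 31.2%, was found once in Bcl11b and once each in the Zap70 window shown and 1 other Zap70 window. The RUNX motif TGTGGT (16.8% of windows) was found in 1 of the other Zap70 windows. The RBPJ motif TGGGAA (25.6% of windows) was found once in the Zap70 window shown. These matches describe the letters in the windows and say nothing about binding.

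Bcl11b was the member most restricted to control GFP-positive HSC. It measured 79.3, 186 and 136 normalised counts in replicates 1, 2 and 3 of that group, a mean of 134 ± 53.2 (SD, n = 3). In KO GFP-positive HSC the 3 libraries held 1.38, 4.68 and 0.00105 normalised counts. The remaining 18 libraries were all below 1, and the 3 control GFP-positive HSC libraries were the only ones of 24 to reach 1 ppm. They carried 98.1% of the summed level of Bcl11b over all libraries.

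Tcf7, which encodes the TCF-1 factor, had the highest single values of the 6 genes. Control GFP-positive HSC held 276, 2462 and 444 normalised counts, and KO GFP-positive HSC held 176, 61.3 and 83.2. The ranges of these groups did not overlap, and the difference of KO minus Ctrl means was -2.75 on the log2(normalised count + 4.10) scale, and from -3.38 to -1.81 when 1 library at a time was left out. The highest of the other 18 libraries held 54.8, in Ctrl LMPP GFP-positive replicate 2, below the lowest KO GFP-positive HSC library. GFP-negative HSC held 0.0991, 40.2 and 0 in Ctrl and 2.32, 5.03 and 21.2 in KO.

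Gata3, which acts in early T cells and also in mast cells and innate lymphoid cells, was the member least bound to one group. It reached 1 ppm in 22 of 24 libraries, and control GFP-positive HSC carried 56.7% of its summed level. That group also had the widest spread, with 11.7, 1136 and 216 normalised counts. Its replicate 1 library ranked 21 of 24 for Gata3, below every GFP-negative HSC library (31.8 to 90.5 in Ctrl, 57.9 to 112 in KO). KO GFP-positive HSC held 58.0, 39.7 and 23.1, so the GFP-positive HSC groups overlapped, and their log2 difference of -1.92 ran from -3.58 to -0.49 with 1 library left out.

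**Figure D1:**
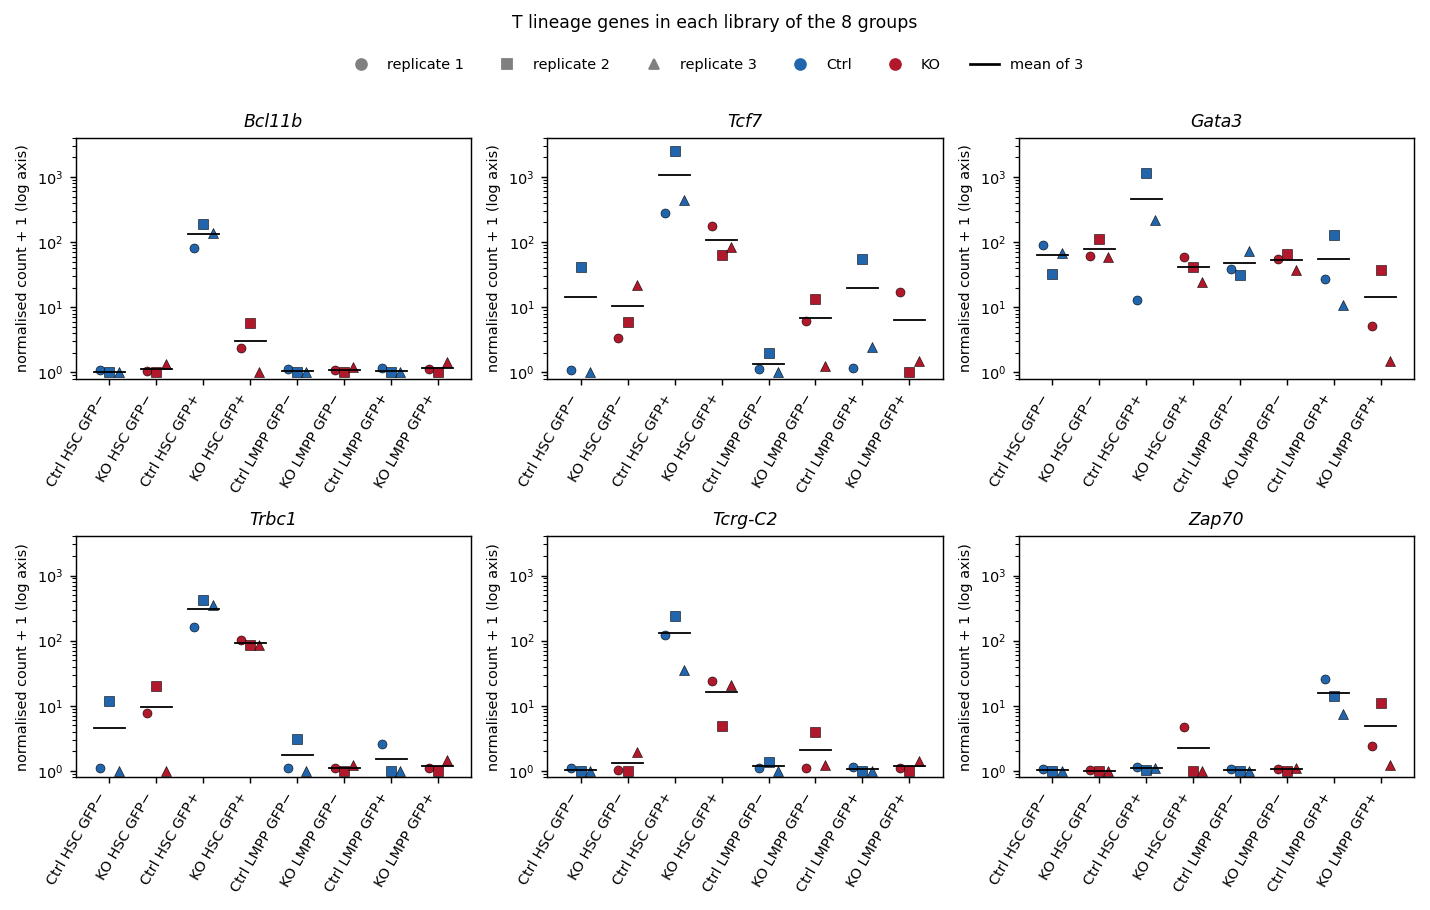
Normalised count + 1 on a log axis (y) for each of the 6 genes in the 8 groups (x). Points are libraries, shaped by replicate and coloured by genotype, and bars are means of 3. Bcl11b stands above 79 only in control GFP-positive HSC, Gata3 is spread over all groups, and Zap70 stands above 6 in the 3 control GFP-positive LMPP libraries and in 1 KO library.

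The beta chain constant segment Trbc1 was present in both GFP-positive HSC groups and nearly absent elsewhere. It measured 162, 423 and 346 normalised counts in Ctrl and 100.5, 86.2 and 84.2 in KO GFP-positive HSC. The groups did not overlap, and the KO libraries lay closer together (90.3 ± 8.88) than the Ctrl libraries (310.1 ± 134). Outside GFP-positive HSC the highest value was 19.3, in KO GFP-negative HSC replicate 2, and all 12 LMPP libraries held 2.12 or less.

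The gamma chain constant segment Tcrg-C2 followed the same order at lower values. Control GFP-positive HSC held 120.5, 239 and 34.7 normalised counts and KO GFP-positive HSC 22.6, 3.88 and 20.1, so the lowest control library was above the highest KO library. The highest of the other 18 libraries was 2.96, in KO LMPP GFP-negative replicate 2.

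Related constant segments were read beside these, since reads from near-identical copies may be split or lost in counting. Of the 76-base windows of Trbc1 transcripts, 42.0% also occur in Trbc2 transcripts, and 4.77% of those of Tcrg-C2 occur in Tcrg-C1. Trbc2 held 0.231, 151 and 11.3 normalised counts in the control GFP-positive HSC libraries, so it was missing from replicate 1, where Trbc1 stood at 162. Tcrg-C1 held 79.5, 749.6 and 49.5 there, and Tcrg-C4 held 19.5, 246.6 and 53.1, both highest in replicate 2. Tcrg-C4 shares no 76-base window with Tcrg-C2, and its 6 GFP-positive HSC libraries (7.66 to 246.6) were the only ones above 1.62.

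The table lists 9 variable or joining segments of the receptor loci, of which 4 (Trbv17, Trbj1-3, Trbj1-7 and Tcrg-V1) were above 1 normalised count in GFP-positive HSC libraries alone. The other 5 were above 1 in 6 to 19 libraries, mostly outside GFP-positive HSC. The share of all genes above 1 in that gate alone was not counted, so nothing is read from the 4 of 9. Trbj1-3 and Trbj1-7, joining segments just upstream of Trbc1 (chr6:41534323-41534376 and chr6:41535642-41535687), were above 1 normalised count in 3 and 2 libraries, all of them GFP-positive HSC. Trbj1-3 held 5.28 and 9.46 in Ctrl replicates 2 and 3 and 13.9 in KO replicate 1. Tcrg-V1 was above 1 in the same 3 libraries, at 35.9, 12.8 and 7.27. Trbv13-2, among the other 5, was above 1 in 19 libraries, 5 of them GFP-positive HSC, with 226, 368 and 99.0 in KO GFP-negative HSC and 114 and 121 in replicates 1 and 2 of KO GFP-positive HSC.

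Zap70 differed from the other 5 genes. Control GFP-positive HSC held 0.133, 0.0190 and 0.127 normalised counts, all under the worth of 1 read. Its highest values were in GFP-positive LMPP, with 24.7, 13.3 and 6.396 in Ctrl and 1.39, 10.2 and 0.223 in KO. Among the other libraries only KO GFP-positive HSC replicate 1, at 3.74, was above 1. In GFP-negative LMPP every library held 0.127 or less. Lck, the kinase that acts just before Zap70, was not restricted in this way and held 285, 603 and 356 in control GFP-positive LMPP against 0.259, 75.4 and 191 in control GFP-positive HSC.

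Read per kilobase of exon, the control GFP-positive HSC level was highest for Trbc1 (414 ± 179 normalised counts per kilobase, SD, n = 3) and Tcf7 (404 ± 463), whose ranges overlap. Tcrg-C2 (144 ± 112) and Gata3 (114 ± 150) came next and also overlap with each other. Bcl11b was at 16.5 ± 6.56, and its range of 9.78 to 22.9 lay below those of Trbc1, Tcf7 and Tcrg-C2 and inside that of Gata3. Zap70 was at 0.0312 ± 0.0215.

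These patterns were counted beside those of all genes. In KO against Ctrl GFP-positive HSC, 4 of the 6 genes (Bcl11b, Tcf7, Trbc1, Tcrg-C2) had every KO library below every Ctrl library, as had 4.95% of 16215 genes. The same 4 genes were higher in every GFP-positive than in every GFP-negative control HSC library, as were 5.66% of genes, and lower in every control GFP-positive LMPP than HSC library, as were 4.88%. These groups are taken to have chosen the genes, so nothing is read from the counts. In KO HSC, 3 of 6 (Tcf7, Trbc1, Tcrg-C2) were higher in every GFP-positive than in every GFP-negative library, as were 6.44% of genes. Nothing is read from this count either, since it uses a GFP-positive HSC group. Between these KO HSC groups Tcf7 lay 3.15 higher and Trbc1 3.21 higher in GFP-positive cells on the log2 scale. Gata3 was 40.3 ± 17.5 in GFP-positive and 76.8 ± 30.9 in GFP-negative KO HSC. In bulk RNA, fewer cells that express a gene and less RNA of it per cell cannot be told apart.

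The 3 control GFP-positive HSC libraries were compared for the T lineage genes they held. Of 62 genes in 4 lists (T cell receptor and CD3, receptor signalling, transcription factors and Notch genes, surface and cytokine receptors), 52 were measured and 47 reached 1 ppm in at least 1 of the 3 libraries. Replicate 2 was the highest of the 3 for 26 of these genes, replicate 1 for 10 and replicate 3 for 11. All 3 libraries held 63.83% of the 47 genes at 1 ppm, and 63.85% of the 13905 genes of the whole table that reached 1 ppm in the group. Over those 13905 genes, replicate 2 was the highest for 4534, replicate 1 for 4482 and replicate 3 for 4889. The highest of all 24 libraries lay in this group for 22 of the 47 genes, and for 32.8% of the 13905. Bcl11b, Tcf7, Gata3, Trbc1 and Tcrg-C2 are among these 22 genes and among the 26 highest in replicate 2. They are taken to have been chosen on these libraries, so nothing is read from these counts.

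Replicate 1 held Cd3e, a signalling chain of the receptor complex, at 41.7 normalised counts, against 0.0176 and 0.117 in replicates 2 and 3. It also held Themis, a regulator of thymocyte selection, at 101, while replicate 2 held 0.0267 and replicate 3 held 48.6. Replicate 2 held Il7r, the interleukin-7 receptor chain needed for early lymphocytes, at 1146, against 41.0 and 236. The thymus homing receptor gene Ccr9 was at 5.19, 802 and 362, and the costimulatory receptor gene Cd28 at 0.250, 301 and 43.1. Txk, a kinase of the Tec family, was at 0.212, 64.3 and 138. These genes were picked after their values were seen, and 30 of the 52 list genes reached 1 ppm in each of the 3 libraries.

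**Figure D2:**
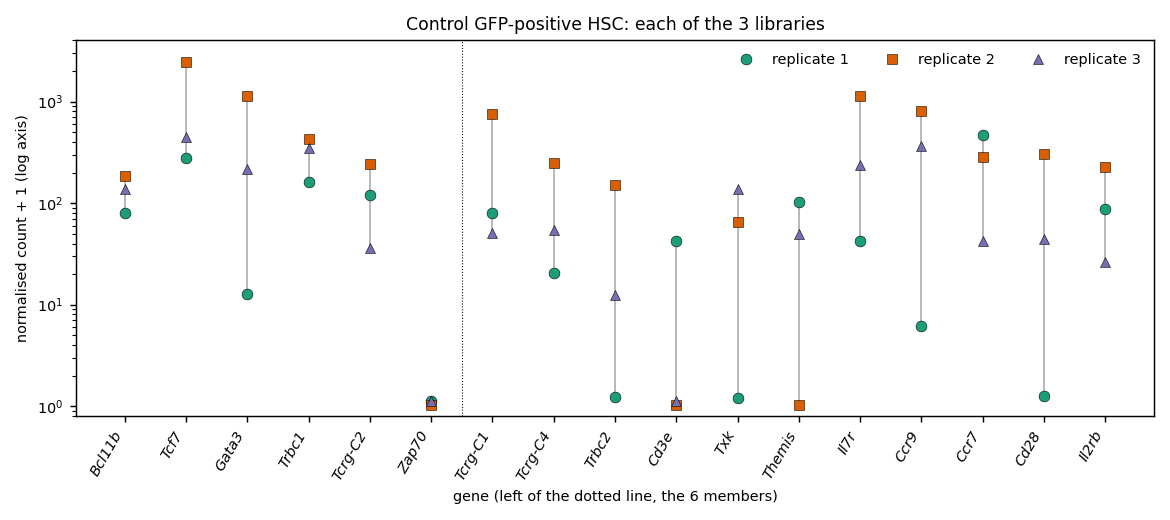
Normalised count + 1 on a log axis (y) in the 3 control GFP-positive HSC libraries for the 6 genes and 11 related genes (x), with a grey line from the lowest to the highest library. Trbc1 and Bcl11b stay within a narrow span, while Cd3e, Txk, Themis and Cd28 drop to the floor in at least 1 library.

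Replicate 2 weighed on the group means. Without it the control GFP-positive HSC mean went from 1061 to 360.2 normalised counts for Tcf7, from 455 to 114 for Gata3 and from 131 to 77.6 for Tcrg-C2. Bcl11b (134 to 108) and Trbc1 (310.1 to 254) moved less. Replicate 2 is also the library of low detection, with 9877 genes at 1 ppm against 11835 and 12611 in replicates 1 and 3, yet 39 of the 52 list genes reached 1 ppm in it, against 37 and 41. In the other 7 groups, 25 to 36 list genes reached 1 ppm per library. Over all genes, 10013 to 13976 did so per library in those groups. The 52 list genes include the 6 members, taken to be chosen on the GFP-positive HSC libraries, so nothing is read from these counts.

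Markers of other cell types were summed in the same libraries. Of 16 mature T cell markers 11 were measured, and their sum was 34.6, 35.1 and 45.7 ppm in control GFP-positive HSC. That lay within the range of control GFP-negative HSC (31.7 to 53.4) and below control GFP-positive LMPP (69.6 to 145). The sum does not speak for each gene. Trbc2, Cd3e and Lck had higher means in GFP-positive than in GFP-negative control HSC, with SDs in GFP-positive HSC above those means. The other genes of the list were not set side by side. In control GFP-positive HSC the lineage coreceptor gene Cd4 was at 51.9, 0.0309 and 8.27 normalised counts, and Cd5 at 0.167, 0.0229 and 6.27. Of 12 NK cell markers 6 were measured, summing to 209, 71.0 and 163 ppm. In GFP-negative HSC they summed to 73.2 to 98.4 ppm in Ctrl and 109 to 168 ppm in KO. In control GFP-positive HSC the cytotoxic granule gene Nkg7, at 1914, 312 and 1296 normalised counts, made up most of the 209 and 163 ppm. The receptor gene Klrd1 was at 3.56, 269.5 and 42.7 there, while Klrb1c stayed at 0.204 or less. Of 10 markers of group 2 innate lymphoid cells (ILC2) 6 were measured, at 75.6, 118 and 39.0 ppm in control GFP-positive HSC. Rora was at 403, 1042 and 118 normalised counts there and Il1rl1 at 1.91, 0.0322 and 13.1. In GFP-negative HSC the ILC2 markers summed to 41.5 to 77.0 ppm in Ctrl and 69.2 to 248 ppm in KO.

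Granulocyte and monocyte markers, all 11 measured, summed to 13906, 4993 and 10335 ppm in control GFP-positive HSC. They were at 2533 to 8155 ppm in KO GFP-positive HSC and at 1918 to 3614 ppm in control GFP-negative HSC. The library with the lowest of the 3 control sums, replicate 2, was the one with the highest Bcl11b, Tcf7, Gata3, Trbc1 and Tcrg-C2. B lineage markers, of which 6 of 10 were measured, summed to 219, 588 and 429 ppm in control GFP-positive HSC, 62.7 to 97.4 ppm in control GFP-negative HSC and 224 to 451 ppm in KO GFP-positive HSC, with replicate 2 again the highest of the 3 control libraries. Plasmacytoid dendritic cell markers, 6 of 8 measured, were at 229 to 311 ppm in GFP-positive and 142 to 170 ppm in GFP-negative control HSC. Among control HSC these 3 lists were therefore higher in the same group as the T lineage genes. Genes of the LSK gate and of progenitors were lower there, at 1343 to 1728 ppm against 1811 to 2885 ppm in GFP-negative control HSC. Erythroid markers were also lower, at 33.7 to 141 ppm against 162 to 477 ppm. The part of these lists in the result was not tested. Mast cell markers, all 8 measured, summed to 324 to 1331 ppm in KO and 25.3 to 64.9 ppm in Ctrl GFP-negative HSC, the groups between which Gata3 was compared next.

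**Figure D3:**
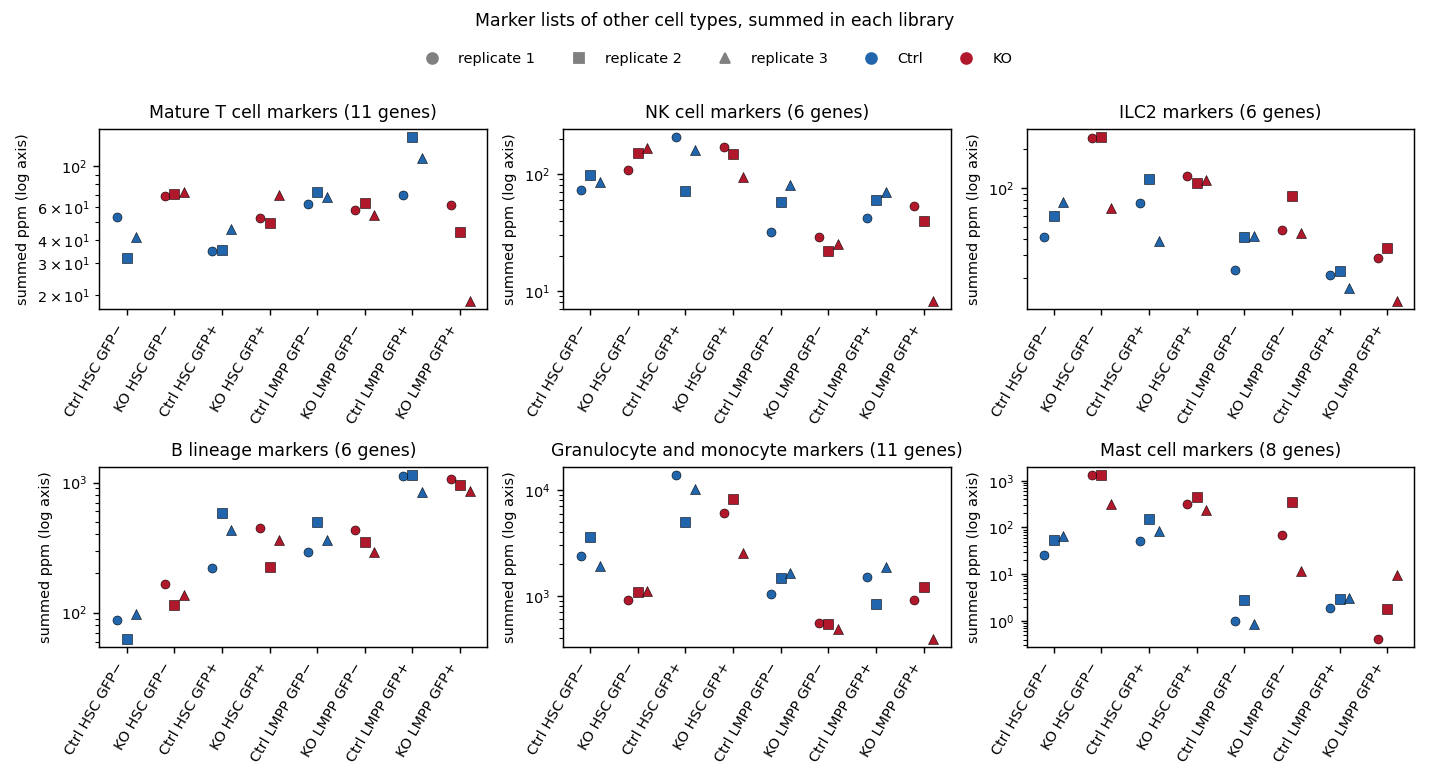
Summed ppm on a log axis (y) of 6 marker lists in each library of the 8 groups (x), with points shaped by replicate and coloured by genotype. Mature T cell markers in control GFP-positive HSC (34.6 to 45.7 ppm) lie in the range of control GFP-negative HSC, and granulocyte and monocyte markers (4993 to 13906 ppm) lie above it.

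The genes whose values were most like those of the members across 24 libraries mixed T lineage and myeloid genes. By Pearson correlation on the log2 scale, with no test and over libraries that share the group structure, the 5 nearest genes to Bcl11b were Tcrg-C2 (0.88), Clec5a (0.86), Mgam (0.86), Olr1 (0.85) and Tcrg-C4 (0.84), where Clec5a is a receptor of myeloid cells. Nearest to Trbc1 were Mefv (0.95), which encodes pyrin of the granulocyte inflammasome, Tcrg-C4 (0.92) and Ms4a3 (0.90), a gene of granulocyte and monocyte progenitors. Tcf7 was nearest to Tcrg-C2 (0.88) and Trbc1 (0.88). Gata3 was nearest to Slc39a9 (0.81), with no T lineage gene among its 5. Zap70 was nearest to Synpo2l (0.87), the B lineage factor gene Ebf1 (0.77) and the plasmacytoid dendritic cell gene Siglech (0.75).

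Without the 3 control GFP-positive HSC libraries, the likeness of Tcf7 to Tcrg-C2 (0.73) and to Trbc1 (0.72) and that of Trbc1 to Tcrg-C2 (0.80) were smaller over 21 libraries than over 24 (0.88 for each pair). That of Bcl11b to Tcf7 was 0.80 over 24 and 0.46 over 21 libraries. Gata3 correlated with the other 5 at 0.46 or less over 24 libraries and at 0.12 or less over 21. The 21 libraries still hold KO GFP-positive HSC, where Tcf7, Trbc1 and Tcrg-C2 were higher than in all the rest. Likeness of these genes outside that gate is therefore not shown.

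The other 8 comparisons set no GFP-positive HSC group against another and were tested with limma over 16215 genes, with Benjamini-Hochberg adjustment and a threshold of 0.05. The fit took each gene's spread from all 24 libraries, so the 6 GFP-positive HSC libraries entered the standard errors, those of Tcf7 and Gata3 included. None of the 6 genes passed in any comparison, and 3 of 48 tests had an unadjusted p under 0.05. Of these, the 2 of Zap70 are not read, since it met the filter only through the group where it was high. All 6 genes met the filter of 1 ppm in at least 3 libraries, but Bcl11b, Trbc1 and Tcrg-C2 did so only with the GFP-positive HSC libraries and Zap70 only through GFP-positive LMPP. The counts of 0 of 6 below therefore rest on Tcf7 and Gata3. Trbc1, and Zap70 in LMPP, are described without a test. In a fit without the 6 GFP-positive HSC libraries, chosen after seeing the data, Tcf7, Gata3 and Zap70 met the filter and none passed.

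The first comparisons asked what loss of Tal1 did outside GFP-positive HSC. In GFP-negative HSC, 0 of 6 members and 0.16% of all genes passed for KO against Ctrl. Gata3 was 76.8 ± 30.9 in KO and 63.4 ± 29.6 in Ctrl, a log2 difference of 0.31 (95% interval -1.88 to 2.50). Trbc1 was 8.73 ± 9.79 in KO and 3.59 ± 6.13 in Ctrl, and the groups overlap. In GFP-negative LMPP, 0 of 6 members and 0.0555% of genes passed, and the widest member difference was that of Tcf7 (5.86 ± 5.998 in KO and 0.368 ± 0.529 in Ctrl).

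In GFP-positive LMPP, 0 of 6 members and 0.0432% of genes passed for KO against Ctrl. Gata3 held 4.07, 36.0 and 0.486 in KO and 25.9, 129 and 9.99 in Ctrl, which overlap, at a log2 difference of -1.74 (-3.93 to 0.45, limma adjusted p = 0.653). Zap70 was 3.93 ± 5.44 in KO and 14.8 ± 9.27 in Ctrl, and the groups overlap. KO replicate 3, lowest of its group for both genes, is a library of low detection.

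The next comparisons asked what changed with the Rag2 reporter within LMPP. In Ctrl, 0 of 6 members and 0.0555% of genes passed. Zap70 was 14.8 ± 9.27 in GFP-positive and 0.0238 ± 0.0413 in GFP-negative cells. It met the filter only through GFP-positive LMPP, so this difference is described without a test. Other lists differed between the same groups. B lineage markers summed to 845 to 1144 ppm in GFP-positive and 290 to 499 ppm in GFP-negative cells, and plasmacytoid dendritic cell markers to 464 to 576 and 311 to 355 ppm. Genes of the LSK gate and of progenitors summed to 1674 to 2311 ppm in GFP-positive and 3055 to 3389 ppm in GFP-negative cells. The part of these cell types in the level of Zap70 was not tested. Tcf7 was 18.8 ± 31.2 and 0.368 ± 0.529, a log2 difference of 1.33 (-0.80 to 3.46).

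In KO LMPP, 0 of 6 members passed while 1.15% of all genes did, the largest share of the 8 comparisons. Zap70 was 3.93 ± 5.44 in GFP-positive and 0.0622 ± 0.0635 in GFP-negative cells. Gata3 was 13.5 ± 19.6 and 51.8 ± 13.9, a difference of -2.26 (-4.45 to -0.07, limma adjusted p = 0.309), read against a median of -0.22 over all genes in this comparison. GFP-positive replicate 3, with the lowest Gata3 (0.486) and Zap70 (0.223) of its group, is a library of low detection (11684 genes above 1). Over the alternatives the Gata3 difference ran from -3.16 to -1.36 and did not pass. The interaction of genotype and reporter in LMPP tested whether the reporter difference itself changed with genotype. It passed for 0 of 6 members and 0% of all genes (limma, 531 genes at an unadjusted p under 0.05), with Tcf7 at -1.60 (-4.61 to 1.41) and Gata3 at -1.94 (-5.04 to 1.16).

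LMPP were compared with HSC among GFP-negative cells. In Ctrl 0 of 6 members and 0.37% of genes passed, and in KO 0 of 6 and 0.876%. Tcf7 was 0.368 ± 0.529 in Ctrl LMPP and 13.4 ± 23.2 in Ctrl HSC, the latter from a single library at 40.2. Trbc1 was 0.114 ± 0.119 in KO LMPP and 8.73 ± 9.79 in KO HSC, and the groups overlap.

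In the wider lists, Il7r, Notch1, Satb1, Tox, Hes1 and Ubash3a were the genes that passed in at least 1 of these comparisons. Il7r was the only one of 14 surface and cytokine receptor genes to pass for the reporter within LMPP. It held 243, 497 and 325 in GFP-positive and 2.76, 20.1 and 9.68 in GFP-negative Ctrl LMPP, a rise of 4.71 on the log2 scale (SE 0.85, limma adjusted p = 0.0231). That call was lost without Ctrl LMPP GFP-negative replicate 1 (adjusted p = 0.183) or 3 (0.106), and without GFP-positive replicate 2 (0.179) or 3 (0.0682). In KO LMPP it rose from 18.6 ± 9.34 to 585 ± 20.3, by 4.79 (limma adjusted p = 0.00401), with or without any single library. The median over the 14 genes was 0.80 in Ctrl and 0.27 in KO LMPP, against -0.04 and -0.22 over all genes.

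Among 16 transcription factor and Notch genes, Notch1, the receptor that starts the T lineage program, rose with the reporter in KO LMPP from 1188 ± 279 to 3755 ± 754 (1.66, limma adjusted p = 0.00242), the only one of the list to pass there. It was also higher in LMPP than in HSC among GFP-negative cells, by 2.08 in Ctrl (adjusted p = 0.000712) and 1.90 in KO (adjusted p = 0.000541). Satb1, a chromatin organiser of lymphoid cells, was higher in LMPP by 1.80 in Ctrl (adjusted p = 0.00175) and by 1.19 in KO (adjusted p = 0.0378), and Tox, a factor of developing T cells, by 2.19 in KO (adjusted p = 0.0258). The KO calls of Satb1 and Tox were both lost when any library but KO HSC replicate 3 was left out (adjusted p = 0.0932 to 0.320 for Satb1 and 0.0519 to 0.271 for Tox). The medians of the list were -0.0018 in Ctrl and -0.24 in KO, against 0.01 and -0.01 over all genes.

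Hes1, a Notch target, was the only one of the 16 to pass for loss of Tal1 in GFP-negative HSC. It held 60.6, 70.5 and 15.9 in KO and 0.0853, 0.425 and 0 in Ctrl, a rise of 3.43 (SE 0.58, limma adjusted p = 0.00820), lost without KO replicate 1 (adjusted p = 0.0885) or 2 (0.151). In KO LMPP it was 2.32 ± 1.25, a log2 difference of -2.85 from KO HSC (limma adjusted p = 0.0106), lost without KO HSC replicate 1 (adjusted p = 0.0716) or 2 (0.111) or KO LMPP replicate 1 (0.0681). Mast cell markers were high in the same KO HSC libraries, and their part in the result was not tested.

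Of 13 receptor signalling genes, only Ubash3a, which encodes a phosphatase that restrains T cell receptor signals, passed. In KO it rose with the reporter in LMPP from 35.6 ± 28.3 to 244 ± 79.7 (3.06, limma adjusted p = 0.0246), and it was lower in GFP-negative LMPP than in HSC (log2 difference -2.99, adjusted p = 0.0322). The first call was lost without KO LMPP GFP-negative replicate 3 (adjusted p = 0.148) and without GFP-positive replicate 1 (0.0548) or 3 (0.0534), and the second without any HSC library (0.0544 to 0.257) or LMPP replicate 3 (0.231). None of 6 receptor and CD3 genes passed in any of the 8 comparisons, and 1 of these 48 tests had an unadjusted p under 0.05. Of these genes, Trbc1, Tcrg-C2 and Tcrg-C4 met the filter only with the GFP-positive HSC libraries, so nothing is read from their tests.

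**Figure D4:**
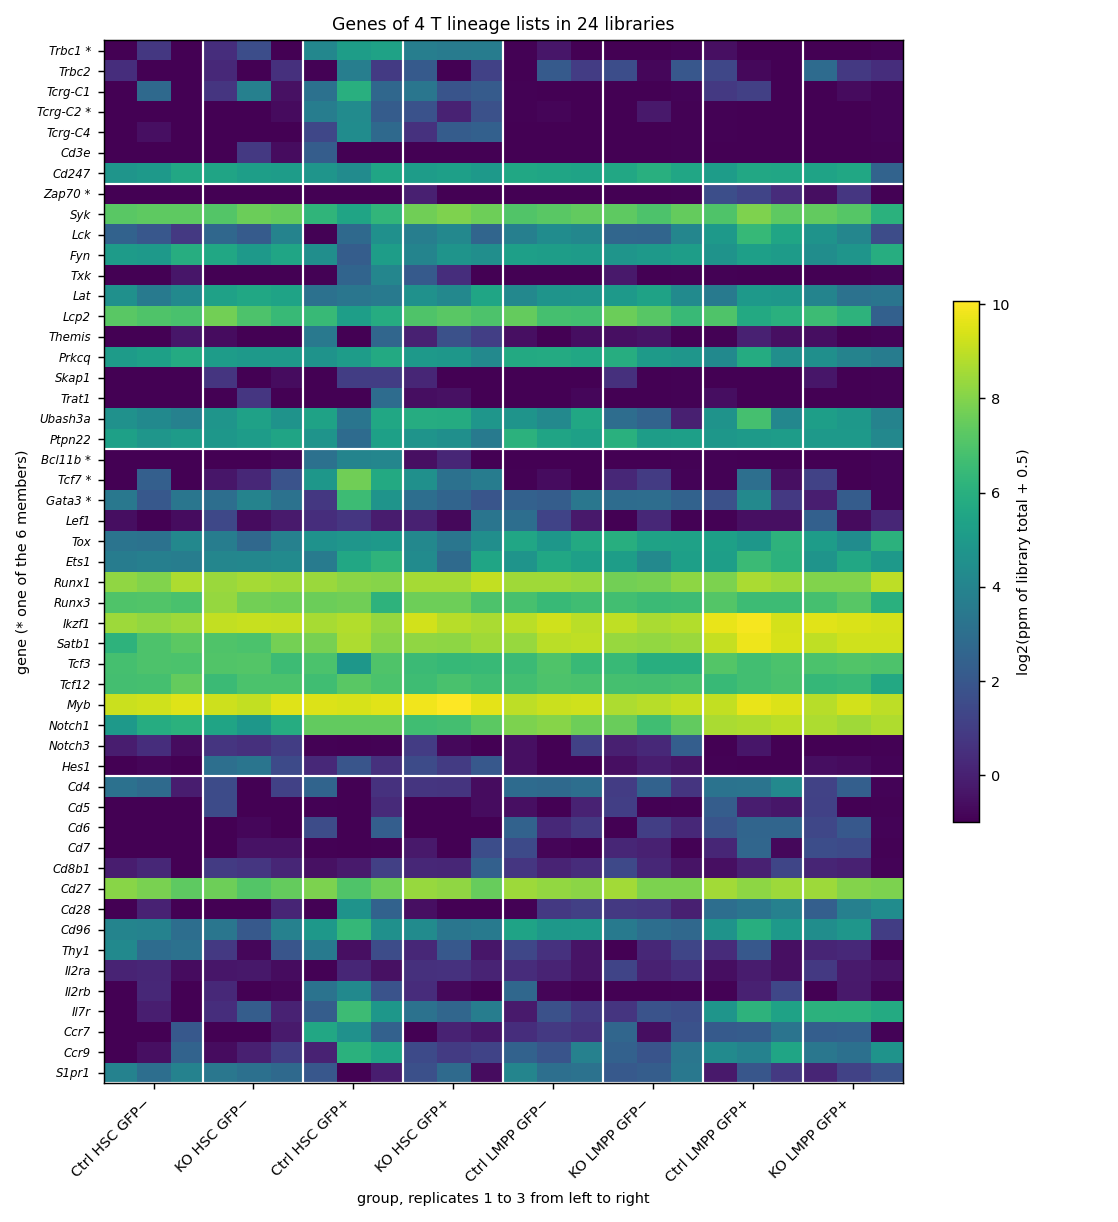
Colour gives log2(ppm + 0.5) of 51 of the 52 measured genes of 4 T lineage lists (y, lists divided by lines, the 6 members starred) in the 24 libraries (x, replicates 1 to 3 within each group). Trbc1 and Tcrg-C4 are brighter in GFP-positive HSC than elsewhere, Bcl11b in the control libraries of that gate alone, while Notch1, Satb1 and Ikzf1 are brightest in the 6 GFP-positive LMPP libraries.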

How the data were processed

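RNA of sorted cells had been sequenced for 76 cycles from 24 libraries, per the labels' protocols. The submitters' processing notes name Trimmomatic 0.33 for trimming, HTSeq 0.6.1, edgeR and the mm10 build. The aligner and normalisation function were not given in the sources used here. Values in the table are a signal, namely normalised counts per gene made by the authors. Since 0.594% of values over 0 came within 0.001 of whole, reads were not recovered, limma replaced any count model, and sequencing depth is not known. No gene is listed at 0 in 13 libraries, while 11 list 755 to 2126 genes at 0, so a 0 in one library and a small fraction in another were not told apart.

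Symbols were matched for 16978 of 17149 identifiers, and 171 stayed without one. Genes with at least 1 ppm of a library's total in at least 3 libraries were kept (16215). The 8 group means were fitted to log2(value + 4.10), where 4.10 is 0.5 ppm of the mean total, with limma 3.58.1 (R 4.3.3), an intensity trend, empirical Bayes and Benjamini-Hochberg adjustment over all genes. The script was tested on simulated data. The alternatives were other pseudocounts, no filter, libraries left out, array weights, fits on the compared libraries alone, replicate blocks and other scalings.

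The 6 members, the gene lists and the marker lists were chosen with earlier results of these data known. Named genes were the members, every list gene that passed, the 5 genes most correlated with each member, and copies of the receptor segments. The genes named one by one in control GFP-positive HSC and in the marker lists were picked after their values were seen. Trac, Trdc, Ptcra, Cd3d, Cd3g, Cd2 and Cd8a were not analysed here. The values of 1 further gene of the lists are not reported here.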

Additional observations from a re-analysis of the deposited data

How the results depend on the processing

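For the 6 members, 138 of 139 counts of genes passing under an alternative stayed at 0, though with only the compared libraries just 1 to 3 members met the filter. The exception was the reporter within control LMPP with array weights, where the count was 1 (Zap70, which met the filter only through the group where it was high). The counts at 0 rest at most on Tcf7 and Gata3, since Bcl11b, Trbc1 and Tcrg-C2 met the filter only with GFP-positive HSC. Of 756 alternative member estimates, 64 had the other sign, and none of those passed. Counts of the wider list genes ranged over the alternatives from 0 to 2 for KO against Ctrl in GFP-negative HSC (1 as reported), 0 to 5 and 1 to 10 for the reporter in Ctrl and KO LMPP (1 and 3), and 2 to 5 and 1 to 8 for LMPP against HSC (2 and 5). With only the compared libraries, Hes1 in HSC (limma adjusted p = 0.0587), Notch1 (0.109) and Ubash3a (0.374) in KO LMPP no longer passed. With a pseudocount of 0.1 ppm, Il7r in Ctrl LMPP (0.0607) and Satb1 (0.0506) and Ubash3a (0.05004) for LMPP against HSC in KO did not. With median-of-ratios scaling, Satb1 (0.110) and Tox (0.0516) in that comparison did not. Counts over all genes moved more, from 8 to 799 for the reporter in KO LMPP (187 as reported) and from 2 to 174 for KO against Ctrl in GFP-negative HSC (26). Within each genotype, libraries of the same replicate number share a description number in the labels. Libraries of the same replicate number deviated together only weakly, both within a genotype and between KO and Ctrl (correlations -0.0302 to 0.201). The numbers were therefore not used as pairs. A replicate block gave 0 members in every comparison, and list genes passing for the reporter in KO LMPP went from 3 to 5 (6 by description number). Group means with 1 library left out, and a fit without GFP-positive HSC, were added after seeing the data. With 3 libraries a group and many values near the worth of 1 read, even wide differences in these genes could go undetected. In KO against Ctrl GFP-negative HSC, the log2 95% intervals were -1.81 to 2.45 for Tcf7 and -1.88 to 2.50 for Gata3.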
